A study of Mus musculus with 4 samples.

Results

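The genes described here encode the proteins of the cytoplasmic ribosome. Members were the protein-coding genes of the GENCODE mouse annotation whose symbols begin with Rpl or Rps and a number, together with Rplp0, Rplp1 and Rplp2. Ribosomal S6 kinases, Rps19bp1 and pseudogenes with -ps in their symbol were left out. This gave 88 genes of 50686 identifiers listed for the hip and 54838 listed for the knee. Of these, 54 belong to the large (60S) subunit and 34 to the small (40S) subunit. By symbol, 76 are core members, 8 are paralogs of a core member (Rpl3l, Rpl7l1, Rpl10l, Rpl22l1, Rpl36al, Rpl39l, Rps4l and Rps27l) and 4 carry names of retrocopies (Rpl27rt, Rpl35rt, Rps27rt and Rps23rg1).

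Each ribosome holds 1 copy of most of these proteins, and cells make them in matched amounts because unassembled ribosomal proteins are degraded. Their mRNAs belong to the TOP class, whose transcripts begin with a cytosine followed by a run of pyrimidines, through which mTOR and the RNA-binding protein LARP1 control their translation and stability. Growing and secreting cells such as chondrocytes and osteoblasts need many ribosomes, and the core genes are active in every cell type.

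RNA from mouse articular cartilage was sequenced to ask how loss of Cbfb, the non-DNA-binding partner of the Runx transcription factors, changes gene expression in the joint. There were 4 poly-A libraries, with 1 per condition. The hip control came from Cbfb f/f mice without Cre, with the treatment labelled as none, and the hip Cbfb-deficient library from tamoxifen-injected Cbfb f/f;Col2a1-CreERT mice. The knee control came from Cbfb f/f;Aggrecan-CreERT mice given oil, and the knee Cbfb-deficient library from mice of that genotype given tamoxifen. All mice were described as male and, by the labels, all carried the floxed Cbfb allele, though the paper's text also calls the hip controls WT. In both lines tamoxifen activates a Cre recombinase that is driven by the promoter of a chondrocyte gene, Col2a1 or Acan. Col2a1 is also active in cells at earlier stages of cartilage formation, so that deletion in that line need not be limited to mature chondrocytes. For the hip the age was given as 6 weeks in one place and as 2 months in another, and for the knee as 12 weeks. Tamoxifen was described as starting at 2 weeks of age in the Col2a1 line and at 8 weeks in the Aggrecan line, for which 6 weeks was also given. How many mice went into a library was not given in the sources used here. The hip pair therefore also differs in Cre and, by the labels, in tamoxifen. The joints differ in the Cre line, the age, the control used and, as the paper describes it, the tissue taken. These differences cannot be told apart from loss of Cbfb or from the joint.

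The libraries held between 34264456 and 38473120 counts on genes. A floor of 3 counts corresponds to 0.0780 to 0.0876 CPM (counts scaled to a common library total). Cbfb itself had 2548 counts in the hip control and 2946 in the hip Cbfb-deficient library, and 3796 and 4572 in the knee libraries. After normalization within the pair its log2 ratio was 0.37 in the hip (95% counting interval 0.29 to 0.45) and -0.08 in the knee (-0.14 to -0.01). Cbfb mRNA was thus higher in the hip library named Cbfb-deficient and nearly the same in both knee libraries. Counts over a whole gene do not show whether a floxed exon was deleted, so the name Cbfb-deficient rests on the labelled genotype and treatment. The labels name articular cartilage, but the note on RNA extraction names osteoblasts. The paper describes the hip samples as pure cartilage and the knee samples as cartilage with bone. A list of 16 chondrocyte genes took only 0.0260% and 0.0106% of the counts of the hip control and hip Cbfb-deficient libraries, and 0.641% and 0.315% of the knee libraries in the same order. Col2a1, the main cartilage collagen, had 354 and 228 counts in the hip pair and 87367 and 33204 in the knee. Of the hip control and hip Cbfb-deficient counts, 23.3% and 22.9% fell on skeletal muscle genes, beside 1.70% and 3.60% in the knee libraries. The hip libraries thus held little cartilage RNA beside muscle RNA. In such bulk RNA, fewer cells of a type and less RNA per cell cannot be told apart.

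Runs of pyrimidines near the listed start site were more frequent among members than among other genes, though under 50% of the members' starts had one. The lines that follow give 10 bases before to 20 bases from a start listed by RefSeq (build GRCm38.p6). They show a selection of members with high levels per kilobase or with ratios described further on, and other such members with a listed start are left out. Rps24 and Rpl3l have another listed start, with longest runs of 7 and 4, and the start with the longer run is shown. Rplp1 and Rps14, among the highest in both controls, have no listed start. Capitals mark the longest run of C and T within these 30 bases.
Rplp0, chr5:115559457-115559486, plus strand: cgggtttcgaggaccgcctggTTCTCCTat
Rps12, chr10:23787190-23787219, minus strand: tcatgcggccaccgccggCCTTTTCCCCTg
Rps15, chr10:80292421-80292450, plus strand: cagagCTCgcgataactgcgcaagcgcagc
Rpl13, chr8:123102340-123102369, plus strand: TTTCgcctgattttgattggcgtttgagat
Rpl41, chr10:128549149-128549178, minus strand: gggccggCTCggaagtgacgacaccgagca
Rps24, chr14:24490668-24490697, plus strand: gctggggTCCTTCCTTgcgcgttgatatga
Rpl4, chr9:64173377-64173406, plus strand: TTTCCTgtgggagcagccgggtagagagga
Rpl23, chr11:97782420-97782449, minus strand: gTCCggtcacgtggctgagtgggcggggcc
Rpl13a, chr7:45128726-45128755, minus strand: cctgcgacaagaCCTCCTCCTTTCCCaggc
Rpl3l, chr17:24727816-24727845, plus strand: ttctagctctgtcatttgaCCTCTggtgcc
Rps12, Rps24 and Rpl13a had runs of 11, 9 and 14 pyrimidines, while the longest runs of Rps15, Rpl41 and Rpl23 had 3. Over the 65 members with a listed start, 35 of 77 starts (45.5%) had a run of at least 7 letters C or T. Such a run lies on the transcribed strand within the window, and 17.9% of 32774 starts of other genes had one. Whether a run began with a C at the first base was not tested. A listed start can lie some bases from the one used in these tissues, so a window without a run does not show that the transcript lacks one.

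Ribosomal protein mRNA took a smaller share of the counts in the Cbfb-deficient library of each joint, by a wide margin in the knee. In the knee, the 88 genes took 7.75% of the counts of the control (Wilson 95% interval 7.74 to 7.76%) and 5.50% of the counts of the Cbfb-deficient library (5.49 to 5.51%), 0.710 times the control share. For the hip the shares were 2.33% (2.32 to 2.33%) and 2.12% (2.12 to 2.13%), a ratio of 0.911. These intervals cover counting error only, and with 1 library per condition no difference between animals can be set against them. The knee control thus gave these genes the highest share of the 4 libraries, and both knee shares lay above both hip shares, which were counted on another set of listed genes.

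Both subunits had lower shares. The 60S genes took 4.28% and 3.10% of the counts of the knee control and knee Cbfb-deficient libraries, and the 40S genes 3.47% and 2.40%. In the hip these shares were 1.47% and 1.33% for the 60S subunit and 0.855% and 0.791% for the 40S subunit. Other transcripts that take large shares moved in the same libraries. Mitochondrially encoded genes, which supply the respiratory chain, took 1.80% and 5.04% of the counts in the knee pair and 6.51% and 7.73% in the hip pair. Erythroid genes, led by the globins, took 9.99% and 4.95% in the knee and 0.589% and 0.223% in the hip. With mitochondrially encoded genes left out of the total, the knee shares of ribosomal protein genes were 7.89% and 5.79%, and with muscle and erythroid genes left out they were 8.77% and 6.01%. The knee Cbfb-deficient share was thus the lower of the pair on each of these totals.

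**Figure D1:**
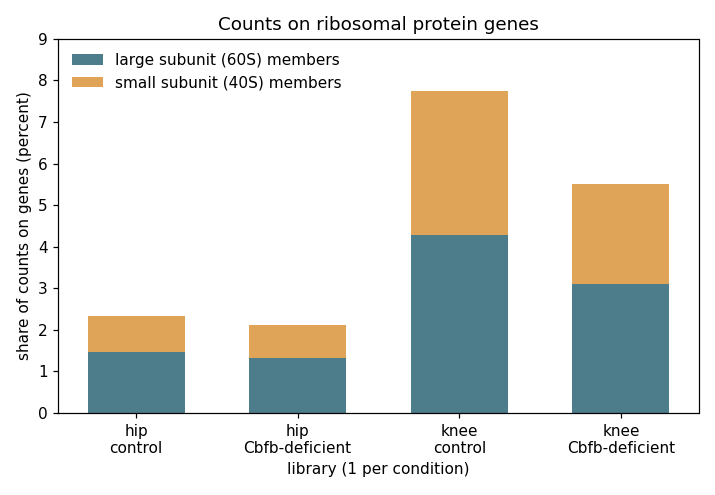
Stacked bars give the share of all counts on genes (percent) that fell on 60S and 40S ribosomal protein genes in each of the 4 libraries. The members together took 2.33% and 2.12% in the hip control and hip Cbfb-deficient libraries and 7.75% and 5.50% in the knee control and knee Cbfb-deficient libraries.

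For each gene a log2 ratio was then taken of the Cbfb-deficient over the control library of the same joint, after normalization within the pair, with 0.5 added to each count and a 95% counting interval. Genes with at least 10 counts over the pair were used, which held for 86 members in each joint. The other members were Rpl10l, the testis paralog of Rpl10, with 0 counts in all 4 libraries, and Rps23rg1, with 1 count in the hip control and 0 in the others. A gene was called changed when its ratio was at least 1 in size (a 2-fold difference) and its interval did not include 0. Because each comparison is of 1 library with 1 library, no p-value is given.

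In the knee, nearly all ribosomal protein genes were lower in the Cbfb-deficient library, and by similar amounts. The log2 ratio was below 0 for 85 of 86 members, against 49.1% of all genes tested. Its counting interval lay below 0 for 83, against 30% of all genes tested, and above 0 for 1, against 31.6%. The 2 members within counting error were Rpl24 and Rps10. The median was -0.68, with quartiles of -0.80 and -0.54, while the median of all 21131 genes tested was 0.01, with quartiles of -0.41 and 0.46. Many members have very high counts, which narrows their intervals. Among 8822 other genes with at least 1000 counts over the pair the interval lay below 0 for 40.7% and above 0 for 40.8%, and their median was 0.00. The medians of the 60S members (-0.67, 53 genes) and the 40S members (-0.72, 33 genes) were close, and 51 and 32 of them had intervals below 0.

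Few of these knee differences were large. By the 2-fold rule 2 members were lower, Rpl39l and Rpl13a, against 6.92% of all genes, and 1 was higher, Rpl3l, against 8.96%. Rpl13a was not called when scaled by library size alone (-0.93). A 1.5-fold rule called 58 members lower, against 13.9% of all genes. All 76 core members had ratios below 0 in the knee, between -1.12 and -0.14. Scaled by library size alone, the median of all genes was 0.20 and that of the members was -0.49, so that the members still lay 0.69 below the median gene, and 83 had ratios below 0.

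In the hip the members did not share a direction. The median log2 ratio was -0.14, beside -0.02 for all 19856 genes tested, and it was 0.072 with the transcript length trend described further on removed. Intervals lay below 0 for 50 of 86 members, against 34.9% of all genes, and above 0 for 26, against 36.3%, and 10 were within counting error. Among 6501 other genes with at least 1000 counts over the pair these shares were 42.7% and 47.1%. With normalization factors computed over all listed genes in place of those with at least 10 counts, a setting added after the data were seen, these counts were 47 and 29. The quartiles of the members were -0.44 and 0.20, a range of 0.64 that was wider than the 0.26 of the knee. The ranges of all genes tested differed in the same direction, with 1.55 in the hip and 0.88 in the knee. Among the 2-fold calls, Rpl39l and Rps27l were lower, against 16.9% of all genes, and Rpl23 and Rpl24 were higher, against 19.6%. With the length trend removed 9 members were called higher and 1 lower, for which no share of all genes is given. An exact test at a preset biological variation of 0.4 called 0 higher and 0 lower. A 1.5-fold rule called 9 members higher, against 27.3% of all genes, and 11 lower, against 24.6%. With the factors over all listed genes, Rpl4 was also called higher and Rps27l was not called. The 60S and 40S members had medians of -0.20 and -0.10.

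Of 86 members, 48 had intervals below 0 in both joints, against 13.4% of 17594 genes tested in both, and 25 lay above 0 in the hip and below 0 in the knee, against 9.98%. Rpl3l was the 1 member below 0 in the hip and above 0 in the knee, a pattern of 10.6% of all genes. The ratio was lower in the knee than in the hip for 79 of 86, against 51.5%. Across the members, the ratios of the 2 joints had a Spearman rho of 0.22 (86 genes, which are not independent replicates). The pairs share no library.

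**Figure D2:**
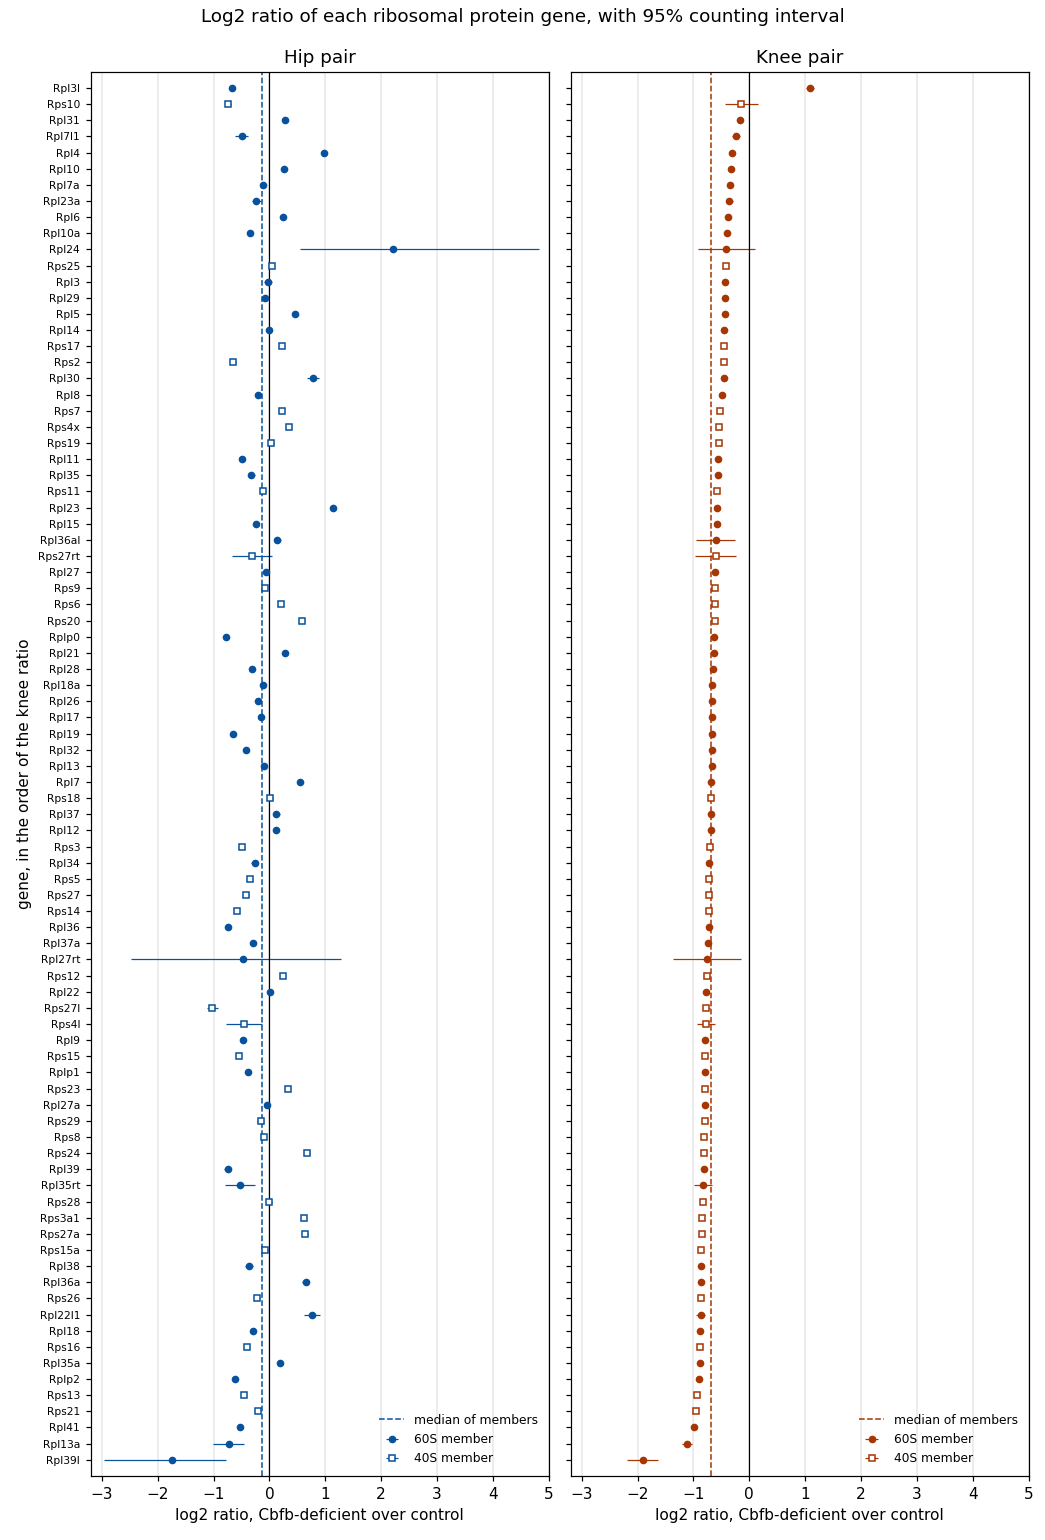
Log2 ratio of each of 86 ribosomal protein genes (Cbfb-deficient over control, horizontal axes) in the hip and knee pairs, with genes in the order of their knee ratio, filled circles for 60S and open squares for 40S members, bars for 95% counting intervals and dashed lines at the medians. In the knee 85 of 86 ratios lie below 0 around a median of -0.68, and in the hip they spread around -0.14, a median that was 0.072 after removal of the transcript length trend.

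The stalk of the large subunit, formed by Rplp0, Rplp1 and Rplp2, recruits and activates the translation factors that hydrolyse GTP. Rplp0 (ENSMUSG00000067274, chr5:115694515-115701793 of GRCm39) had 57081 counts in the hip control and 29798 in the hip Cbfb-deficient library, and 89881 and 74117 counts in the knee control and knee Cbfb-deficient libraries. Its log2 ratio was -0.78 in the hip (95% counting interval -0.80 to -0.75), the lowest of the core members there, and -0.62 in the knee (-0.64 to -0.61). The counts of Rplp1 in the same order were 39127, 26636, 93602 and 68501, with ratios of -0.39 and -0.79. Rplp2 had 14459, 8425, 64211 and 43555 counts, with ratios of -0.62 and -0.90. The stalk genes were thus lower in the Cbfb-deficient library of both joints, and in the hip they lay further below 0 than the median member. With the trends over transcript length and GC content described further on removed, the hip ratios were -0.29 for Rplp0, 0.27 for Rplp1 and -0.014 for Rplp2, beside a members' median of 0.18, so that Rplp1 lay above both 0 and the median. Their summed share of all counts was 0.288% and 0.188% in the hip pair and 0.723% and 0.487% in the knee.

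In levels per kilobase of canonical transcript, Rplp1 ranked first of the members in the hip control (1859 CPM per kilobase), the hip Cbfb-deficient library (1408) and the knee Cbfb-deficient library (3276), and second in the knee control (4994). Rpl41, which encodes a very short basic peptide at the interface of the subunits, had the highest level in the knee control at 5190 CPM per kilobase and 2977 in the knee Cbfb-deficient library. Its hip levels were 614 and 424. The counts of Rpl41 were 13228, 8206, 99588 and 63734 in the order of the libraries above, with log2 ratios of -0.53 (-0.57 to -0.49) in the hip pair and -0.99 in the knee. With length and GC trends removed its hip ratio turned to 0.10. Rpl41 was, after Rpl39l and Rpl13a, the member with the lowest knee ratio. Next to it in the knee were Rps21 at -0.95, from 41942 and 27660 counts, and Rps13 at -0.93, from 25206 and 16822. In the hip, these 40S genes had ratios of -0.21 and -0.46, which turned to 0.14 and 0.015 with both trends removed.

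Rps12, Rps14 and Rps15, all of the small subunit, were the other leading genes of the knee control, with 4803, 2969 and 2742 CPM per kilobase. In the knee Cbfb-deficient library their levels were 3237, 2049 and 1805. Rps14, whose loss of 1 copy underlies the anaemia of the human 5q- syndrome, had 30458 and 18264 counts in the hip (log2 ratio -0.58, or 0.019 with both trends removed) and 61957 and 47710 in the knee (-0.72). Rps12 went the other way in the hip, with 7752 and 8174 counts and a log2 ratio of 0.24, and had 75711 and 56920 counts and a ratio of -0.76 in the knee. The order of the levels per kilobase was almost the same in both knee libraries (Spearman rho 0.99 over 88 genes) and was kept less well between the hip libraries (0.93) and between the 2 controls (0.81).

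The members that were higher in the hip Cbfb-deficient library were not those of 1 subunit. Of the 26 with intervals above 0, 16 belong to the 60S and 10 to the 40S subunit. Rpl23, a protein of the large subunit that is known to bind Mdm2 (chr11:97668352-97673324 of GRCm39), had 6256 counts in the hip control and 12336 in the hip Cbfb-deficient library. Its hip log2 ratio was 1.14 (1.10 to 1.19), the highest among members with at least 100 counts. In the knee, Rpl23 had 38082 and 32284 counts and a ratio of -0.58 (-0.60 to -0.56), near the median of the members. Rpl4, which lines the exit tunnel of the large subunit, had 17244 and 30264 counts in the hip pair and 44416 and 45500 in the knee. With 30264 counts, Rpl4 was the member with the most counts in the hip Cbfb-deficient library, where Rplp0 had led in the control. The log2 ratios of Rpl4 were 0.97 (0.95 to 1.00) and -0.31 (-0.33 to -0.29).

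The other genes with the highest hip ratios were Rpl30 at 0.78, from 1196 and 1837 counts, Rpl22l1 at 0.76 and Rps24 at 0.68. Rps24, a gene of the small subunit that is mutated in some patients with Diamond-Blackfan anaemia, had 7870 and 11232 counts in the hip pair and 58518 and 42535 in the knee, with a knee ratio of -0.80. Rpl30 had 10090 and 9321 counts and a ratio of -0.46 in the knee. None of these genes was above 0 in the knee. Among the lowest hip ratios after those of Rpl39l, Rps27l and Rplp0 were Rpl39 (-0.75), Rps10 (-0.74) and Rpl36 (-0.74). With length and GC trends removed these were -0.88, -0.0096 and -0.084, so that the values of Rps10 and Rpl36 came close to 0.

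Rpl24 (chr16:55786638-55791798 of GRCm39) had the largest hip ratio of all, 2.21 (0.54 to 4.83), but from 3 and 14 counts. In the knee it had 68 and 65 counts and a ratio of -0.41 (-0.92 to 0.10). It is named here after its values were seen, since it falls outside the rule for named genes. The lncRNA gene Gm28037, listed in the files of both joints at 0 counts, covers 83.4% of the coding bases of Rpl24 on the same strand, and reads that fall on exons of more than 1 gene may not be counted on either. The same holds for Rpl13a, of whose coding bases 97.5% are covered by Gm45713, also at 0. Rpl13a, often used as a reference gene in PCR, had 313 and 168 counts in the hip (log2 ratio -0.73, interval -1.01 to -0.46) and 2756 and 1615 in the knee (-1.12, interval -1.20 to -1.03). With length and GC trends removed its hip ratio was -0.26. In the files of the knee alone, Gm49804 covers 92.1% of Rps10 and Gm49383 covers 95.3% of Rpl36al. Rps10 had 10325 and 5521 counts in the hip but 186 and 214 in the knee, and Rpl36al 3644 and 3587 in the hip but 155 and 130 in the knee. The part of these overlaps in the counts was not tested. Without the overlapped genes, 73 core members had medians of -0.11 in the hip pair and -0.67 in the knee, and all 73 had intervals below 0 in the knee.

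Genes that serve as PCR references or are best known for other roles all had ratios below 0 in the knee, while in the hip they lay on both sides of 0. Rps18 had 10826 and 9782 counts in the hip, a log2 ratio of 0.02 with an interval of -0.02 to 0.06 (0.61 with both trends removed), and 38512 and 30478 in the knee, a ratio of -0.68. Rpl32 had ratios of -0.42 (0.20 with both trends removed) and -0.67 in the hip and knee, and Rpl19 of -0.65 and -0.67. Rps6, the substrate of the S6 kinases downstream of mTOR, had 8259 and 8463 counts in the hip pair and 24845 and 20552 in the knee, with ratios of 0.20 (0.54 with both trends removed) and -0.62. Rps19, the gene most often mutated in Diamond-Blackfan anaemia, had ratios of 0.03 (-0.02 to 0.08, or 0.62 with both trends removed) and -0.54. Rpl5 and Rpl11 enter the large subunit together with the 5S rRNA and restrain Mdm2 when assembly fails. Their hip ratios had opposite signs, 0.46 for Rpl5 (9976 and 12292 counts) and -0.50 for Rpl11 (12755 and 8058 counts), and their knee ratios were -0.44 and -0.55. With length and GC trends removed both hip ratios lay below 0, at -0.47 and -0.14. Rpl17 had ratios of -0.16 and -0.67, and its hip ratio was 0.21 with the length trend removed and -0.47 with both removed.

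Some ribosomal proteins are made as fusions with ubiquitin or a like protein, or carry other names. Rps27a, a member, encodes ubiquitin joined to a 40S protein and had ratios of 0.64 in the hip (4479 and 6247 counts, or 0.18 with both trends removed) and -0.85 in the knee (37229 and 26171 counts). Rpsa, Fau and Rack1 also encode ribosomal proteins but are no members by symbol. In the hip their ratios were -0.38, -0.40 and -0.33, each with an interval below 0, and those of Fau and Rack1 turned to 0.33 and 0.14 with both trends removed. The hip ratio of Rpsa was -0.16 with the length trend removed. In the knee Rpsa, also known as the laminin receptor, had 99305 and 72675 counts and a ratio of -0.79, Fau one of -0.79 and the scaffold Rack1 one of -0.57.

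Of the paralogs, Rpl3l and Rpl22l1 were those whose ratios differed most between the joints. Rpl3l (ENSMUSG00000002500, chr17:24946751-24955119 of GRCm39) encodes the form of Rpl3 found in striated muscle, where it can replace Rpl3 in the ribosome. Rpl3 had 4253 and 3733 counts and Rpl3l 26568 and 14979 counts in the hip control and hip Cbfb-deficient libraries, while in the knee Rpl3 had 31940 and 30047 counts and Rpl3l 2095 and 5659. Rpl3l therefore made up 86.2% and 80.1% of the counts of both genes in the hip pair and 6.16% and 15.8% in the knee. Its log2 ratio was -0.66 in the hip (-0.69 to -0.64) and 1.09 in the knee (1.02 to 1.16). The hip value was close to 0, at -0.047, with length and GC trends removed. Rpl3 had ratios of -0.03 (-0.09 to 0.04, or 0.46 with length and GC trends removed) and -0.43 (-0.46 to -0.41). The skeletal muscle list, which took 1.70% and 3.60% of the knee counts, was also higher in the knee Cbfb-deficient library, where all 26 genes of the list had intervals above 0, around a median of 1.02. In the hip 15 of these 26 genes lay below 0 and 10 above. Of all genes, 31.6% lay above 0 in the knee, and 34.9% lay below and 36.3% above in the hip. The part of muscle RNA in the ratios of Rpl3l was not tested.

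Rpl22l1, which can stand in for Rpl22 and is regulated by it, had 685 and 1039 counts in the hip pair and 2723 and 1888 in the knee, with log2 ratios of 0.76 (0.62 to 0.90, or 0.15 with length and GC trends removed) and -0.87 (-0.96 to -0.79). Per coding base its counts were 0.122 and 0.204 times those of Rpl22 in the hip pair and 0.145 and 0.134 times in the knee pair. Rps27l, a paralog of Rps27 that p53 can induce, had 2871 and 1260 counts in the hip pair and 5703 and 4248 in the knee. Its ratios were -1.03 (-1.12 to -0.93) and -0.77 (-0.83 to -0.71), beside -0.41 and -0.72 for Rps27, and its share of the counts of both was 26.6% and 19.2% in the hip pair and 19.2% and 18.7% in the knee pair. Rpl39l, a paralog of Rpl39 best known from male germ cells, had 39 and 10 counts in the hip pair and 430 and 146 in the knee. With ratios of -1.75 (-2.97 to -0.77) and -1.90 (-2.18 to -1.63) it was the lowest member in both joints, and its share of the summed counts with Rpl39 was 0.614% and 0.297% in the hip pair and 1.77% and 0.843% in the knee.

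Rpl7l1, which acts in ribosome assembly, had ratios of -0.50 and -0.24 beside 0.55 and -0.68 for Rpl7. Its hip ratio was -0.024 with length and GC trends removed, and its knee ratio was 0.0097 with the length trend removed. Per coding base its counts were 0.194 and 0.0941 times those of Rpl7 in the hip libraries, and 0.0924 and 0.125 times in the knee libraries. Rpl36al took 54.0% and 45.3% of its summed counts with Rpl36a in the hip pair and 0.702% and 0.845% in the knee, where its coding bases are overlapped. Rpl36a had ratios of 0.65 and -0.87. Rps4l took at most 2.03% of its pair with Rps4x in any library, and its ratios were -0.45 (0.17 with length and GC trends removed) and -0.78 beside 0.36 and -0.54. For Rpl10l, 0 of 19271 counts of its pair with Rpl10 in the knee control allow a share of up to 0.0199% by the Wilson interval. Rpl10 had ratios of 0.26 and -0.32, which became 0.43 and 0.039 with length and GC trends removed, so that its knee ratio changed sign. Short reads from near-identical genes can be assigned to either, so the split of a pair is less certain than its sum.

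**Figure D3:**
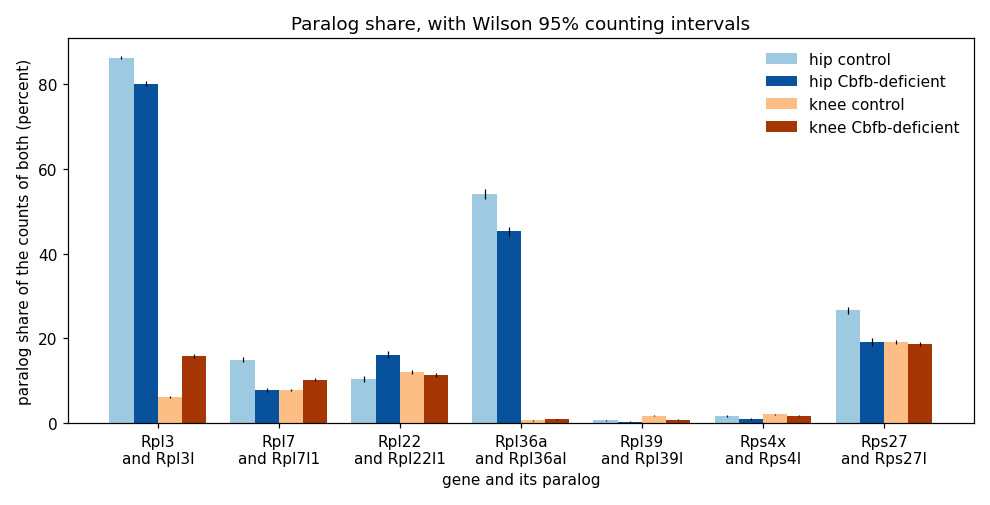
Bars give the share (percent) of a paralog in the summed counts of the paralog and its parent in each library, with Wilson 95% counting intervals. Rpl3l took 86.2% and 80.1% in the hip control and hip Cbfb-deficient libraries and 6.16% and 15.8% in the knee libraries, and Rpl36al took 54.0% and 45.3% in the hip and under 1% in the knee, where a listed gene overlaps it.

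Transcript length moved with the ratios of all genes, and the transcripts of ribosomal proteins are short. The median canonical transcript of the 88 members has 1099.5 bases, of which the coding part has 454.5, while the median of the genes tested was 2883 bases in the hip pair and 2698 in the knee. In the hip, the median log2 ratio of the other genes was -0.30 for transcripts of 532 to 803 bases and 0.76 for those over 8201 bases. In the knee it was -0.43 for 428 to 645 bases and 0.23 for those over 7981. The lowest hip median, -0.47, belonged to transcripts of 1056 to 1323 bases, and that of the shortest, of 50 to 532 bases, was -0.20. The shortest knee bin, of 38 to 427 bases, had -0.34. Short transcripts thus had lower ratios than long ones in both pairs, without a steady fall toward the shortest. The 18 members between 428 and 645 bases in the knee had a median of -0.79, well below the -0.43 of the 1023 other genes of that length. In the hip the 18 members between 532 and 803 bases had a median of -0.26 beside -0.30 for 961 others.

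With the median of the other genes in the same of 20 length bins subtracted from each ratio, the members' median was -0.42 in the knee, and 81 of 86 lay below their bin. The 5 above were Rpl10, Rpl23a, Rpl3l, Rpl7l1 and Rps10. In the hip the median became 0.072, with 37 members below their bin and 49 above. The knee difference was thus smaller but still present at matched length, and that of the hip changed sign. Short protein-coding genes were also compared directly. In the knee, 41 members with transcripts of at most 1000 bases had a median of -0.77, and 773 other protein-coding genes of that length had one of -0.46, or -0.50 for the 359 with at least 1000 counts. In the hip the 41 members had a median of -0.21, above the -0.55 of 644 others and the -0.69 of the 254 with at least 1000 counts. Beside short protein-coding genes alone, the hip members thus lay further above the others than in the length bins, which hold genes of every type.

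Length on the annotation may differ from the length of the transcript in the tissue, since 9 members have canonical transcripts over 3000 bases with a short coding part. The longest is Rpl37 with 6111 bases, which had 4295 and 4180 counts in the hip pair and 19194 and 15104 in the knee and ratios of 0.12 (-0.78 with length and GC trends removed) and -0.69. The shortest is Rps27rt with 374 bases, which had 164 and 118 counts in the hip pair and 135 and 113 in the knee and ratios of -0.31 (-0.67 to 0.04) and -0.60 (-0.97 to -0.23). Among the members themselves, the knee ratio had a Spearman rho of 0.50 with coding length (86 genes), beside 0.27 across all genes, and the genes of the shortest peptides such as Rpl41 and Rps21 were among the lowest. In the hip this rho was 0.09. There the ratio moved with the GC content of the transcript instead, with a rho of -0.43 over the members and -0.38 over all genes. The 26 members with hip intervals above 0 had a median GC content of 48.0% and the 50 below 0 one of 53.2%. In the knee the rho with GC content was 0.04.

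**Figure D4:**
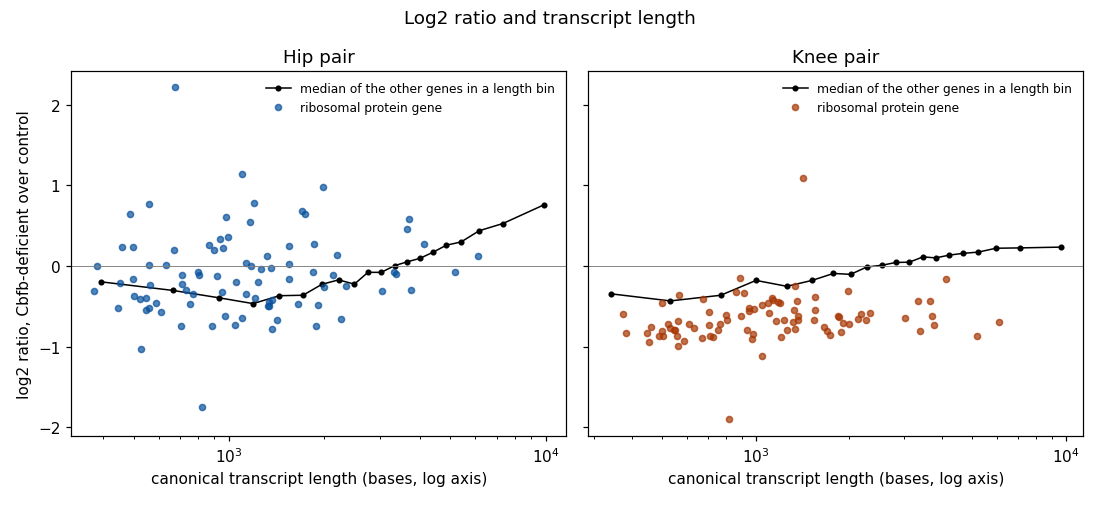
Each coloured point is a ribosomal protein gene, with its canonical transcript length (bases, log axis) against its log2 ratio of Cbfb-deficient over control in the hip and knee pairs, and the black line joins the medians of the other genes in 20 length bins. In the knee 81 of 86 members lie below the line, and in the hip 37 lie below and 49 above.

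Copies of ribosomal protein genes elsewhere in the genome can take or lend reads. Coding sequences of 76 members matched at least 1 other place of GRCm39 at 95% identity over 90% of their length, with 517 places in all and up to 54 for 1 member. The 12 members without such a copy had medians of -0.47 in the hip pair and -0.75 in the knee, and the 74 tested members with a copy had -0.09 and -0.67. The median GC content was 53.8% for the 12 without a copy and 50.5% for the 74 with one. Those without a copy included the paralogs Rpl3l, Rpl39l, Rps27l and Rps4l. The part of copies in these ratios was not tested. Pseudogenes with -ps symbols took little of the counts, 0.0681% and 0.0545% in the hip pair and 0.0711% and 0.0494% in the knee. Of 164 such pseudogenes tested in the knee, 97 had intervals below 0 and 2 above, against 30% and 31.6% of all genes. Their median was -0.64. In the hip 32 of 138 lay below and 16 above, against 34.9% and 36.3% of all genes, with a median of -0.30. Members with a pyrimidine run of at least 7 at a RefSeq start had medians of -0.25 in the hip pair and -0.72 in the knee (33 genes), and those with a listed start but no such run had 0.01 and -0.64 (30 genes).

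Most lists of the rest of the translation machinery were lower in the knee Cbfb-deficient library as well. Of all genes tested there, 30% had intervals below 0 and 31.6% above. Among other genes with at least 1000 counts these shares were 40.7% and 40.8%. Of 16 elongation factors and other TOP mRNAs, 13 had intervals below 0 in the knee, with a median of -0.36. Within this list Eef1b2, an exchange factor of elongation factor 1, had a ratio of -0.89 from 30187 and 20747 counts, whereas Eef1a1, with 91563 and 114560 counts, had -0.02 and Eef2, with 58955 and 81380, had 0.12. Members of the TOP class thus did not all have the ratio of the ribosomal proteins. Among 59 initiation factors 38 lay below 0 and 12 above (median -0.32), and among 30 genes of ribosome assembly and rRNA synthesis 25 lay below and 2 above (-0.34). All 6 snoRNA host RNAs, several of which are also TOP transcripts, lay below 0 in the knee with a median of -0.64. Gas5 was one of them, with 7179 and 6021 counts and a ratio of -0.60. Regulators of ribosome supply such as Mtor, Larp1 and Tsc2 had a median of 0.09 over 14 genes. The transcripts of several of these lists are longer than those of the members. Less the length trend, the knee medians were -0.42 for the members, -0.44 for the snoRNA hosts, -0.37 for the elongation factor and TOP list, -0.36 for the assembly genes and -0.25 for the initiation factors. The elongation factor and assembly lists thus lay closer to the members at matched length.

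In the hip these groups parted. Of all genes tested there, 36.3% had intervals above 0 and 34.9% below. Among other genes with at least 1000 counts these shares were 47.1% and 42.7%. All 6 snoRNA host RNAs lay above 0 around a median of 1.24, and Gas5 had 526 and 1781 counts and a ratio of 1.92. Ncl, the nucleolar protein nucleolin, had 2337 and 9717 counts and a ratio of 2.22, and Npm1, nucleophosmin, had 1523 and 4559 and a ratio of 1.74. These were the highest hip ratios of the assembly list and of the elongation factor and TOP list, whose lowest were -0.68 and -0.88. Less the length trend, Ncl had 1.46 and Npm1 2.11. The elongation factor and TOP list had a median of 0.13 with 9 genes above 0 and 6 below, and 55 initiation factors had 0.25 with 31 above and 18 below. Among 30 assembly genes 12 lay above and 14 below. The ribosomal proteins themselves, at -0.14, lay below the snoRNA hosts and initiation factors and above 3 lists of other housekeeping genes. Mitochondrial ribosomal proteins, which serve translation inside mitochondria, had a median of -0.72 in the hip, with 70 of 77 below 0, and -0.44 in the knee, with 60 of 77 below. Nuclear subunits of the respiratory chain had -1.02 in the hip (81 of 84 below) and -0.36 in the knee (71 of 85 below). Proteasome subunits had -0.25 and -0.41. In the knee the cytoplasmic ribosomal proteins thus had a lower median than these 3 lists, and in the hip a higher one. Less the length trend the hip order against the proteasome turned, with 0.081 for its subunits and 0.072 for the members.

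**Figure D5:**
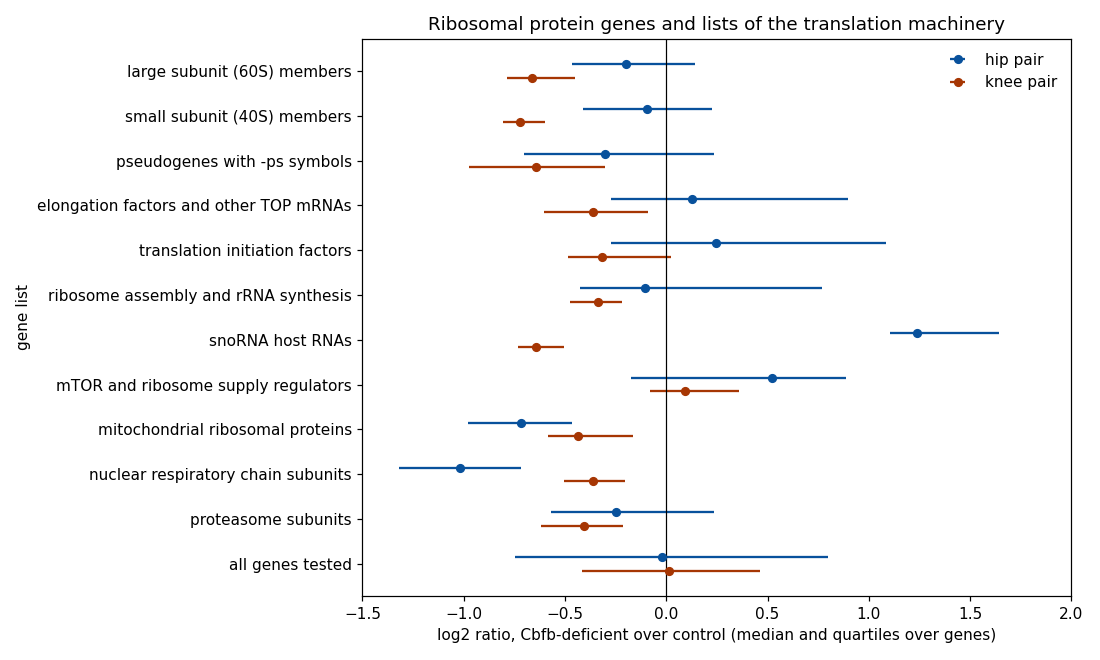
Points give the median log2 ratio (Cbfb-deficient over control, horizontal axis) of each gene list in the hip and knee pairs, with bars from the first to the third quartile over its genes. In the knee the 60S and 40S members lie at -0.67 and -0.72, next to the snoRNA hosts and pseudogenes at -0.64, and in the hip they lie at -0.20 and -0.10, where snoRNA hosts lie at 1.24.

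Cell types differ in how much ribosomal protein mRNA they hold, and the summed shares of several marker lists moved with the members. In the knee, lists with a lower share in the Cbfb-deficient library included chondrocyte genes (0.641% and 0.315% of counts), osteoblast and osteocyte genes (1.43% and 0.804%), erythroid genes (9.99% and 4.95%) and lymphoid and myeloid genes (2.80% and 2.41%). Not all of their genes moved that way. Intervals lay below 0 for 13 of 16 chondrocyte, 7 of 12 osteoblast and osteocyte, 7 of 9 erythroid and 8 of 13 lymphoid and myeloid genes, and above 0 for 3, 4, 2 and 4 of them. Over all genes tested in the knee, 30% lay below 0 and 31.6% above. Skeletal muscle (1.70% and 3.60%) and adipocyte genes (0.0724% and 0.129%) had higher shares, and all 10 adipocyte genes had intervals above 0. In the hip, chondrocyte, osteoblast and erythroid lists had lower shares (0.0949% and 0.0278% for osteoblasts). Of their genes, 10 of 15, 7 of 12 and 8 of 9 lay below 0, and 3, 3 and 1 above. The lymphoid and myeloid share was slightly higher (0.0436% and 0.0496%), though 8 of its 13 genes lay below 0 and 4 above, around a median of -0.18. Over all genes tested in the hip, 34.9% lay below 0 and 36.3% above. The muscle share was similar. The adipocyte share was higher (0.0421% and 0.127%), mostly through Plin4, which had 6694 and 30321 counts. Of the 10 adipocyte genes 6 lay above 0 in the hip and 2 below, Lep (-4.58, from 120 and 4 counts) and Plin1 (-1.32). The part of cell makeup in the shares and ratios of the ribosomal protein genes was not tested.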

How the data were processed

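Poly-A RNA libraries from 4 conditions were analysed, with 1 library each. The deposited values are raw read counts for each Ensembl gene, which the authors had not normalized. The paper states alignment with STAR to GRCm39, while the submitters' processing notes list STAR 2.0, FastQC 0.11.3 and mm10. Hip files end with summary lines in the format of HTSeq (25.8% and 24.6% of the total, left out here, with 13.3% and 12.8% of all reads not unique and 7.40% and 5.96% ambiguous). The knee counts come from another annotation, and their counting program is not given in the sources used here.

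Symbols, lengths and coordinates came from GENCODE M39 (GRCm39), which matched 91.8% and 92.6% of the identifiers. Normalization within each pair used edgeR 4.0.16 (TMM over genes with at least 10 counts), or as an alternative size factors from DESeq2 1.42.0, under R 4.3.3. Log2 ratios had 0.5 added to each count, and 95% Clopper-Pearson intervals of the counts cover counting error only. The length trend was the median ratio of non-members in 20 equal-number bins of Ensembl canonical transcript length. Copies were sought with minimap2 2.31. Other steps used Python 3.11.15, numpy 2.4.6, pandas 2.3.3, scipy 1.17.1 and matplotlib 3.10.9. Promoter windows came from RefSeq (GRCm38.p6). Steps were tested on simulated data.

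Members, gene lists, named genes and tests were chosen with earlier results of these data known. Named genes were paralogs with their parents, the 5 highest and 5 lowest ratios per joint among members with at least 100 counts in one library, stalk, fusion, PCR reference and anaemia genes, the longest and shortest transcripts, the 5 highest levels per kilobase in each control, and members with under 10 counts over a pair. Of other lists, genes were shown as examples. Alternatives were other scalings, added counts, count filters, call rules, edgeR's exact test at a preset biological variation of 0.4, and length and GC corrections.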

Additional observations from a re-analysis of the deposited data

Results flagged for a closer look

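Of the members, 2 were called in one joint and lay on the other side of 0, beyond the counting interval, in the other joint. Rpl23 had a log2 ratio of 1.14 in the hip and -0.58 in the knee. For Rpl3l the ratio was -0.66 in the hip and 1.09 in the knee. With 1 library per condition the difference between the joints was not tested. The pairs also differ in Cre line, age, control, described tissue and the set of genes listed. With the trends over length and GC content removed, the hip ratio was 1.40 for Rpl23 and -0.047 for Rpl3l.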

How the results depend on the processing

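No paired analysis was possible because each condition has 1 library, and no replicate could be left out. Shares of counts on members in the hip control, hip Cbfb-deficient, knee control and knee Cbfb-deficient libraries were 2.49%, 2.30%, 7.89% and 5.79% without mitochondrially encoded genes, 3.06%, 2.76%, 8.77% and 6.01% without muscle and erythroid genes, and 2.40%, 2.18%, 7.82% and 5.55% with -ps pseudogenes. The hip median log2 ratio of -0.14 became 0.072 with the length trend removed and 0.18 with length and GC trends removed. The knee median of -0.68 was -0.49 by library size, -0.42 without the length trend and -0.41 without length and GC trends. Less the length trend, the hip median of 0.072 was 0.15 by exon union length and 0.20 by coding length (chosen after seeing the data), and the knee median of -0.42 was -0.55 by exon union length and -0.46 with 10 bins. Counts of called members moved too. In the hip, 2 were called higher and 2 lower, against 19.6% and 16.9% of all genes. Where each library had to hold at least 10 counts, 1 was higher, with the length trend removed 9 were higher and 1 was lower, by a 1.5-fold rule 9 were higher and 11 lower (against 27.3% and 24.6% of all genes), and with TMM over all listed genes (added after seeing the data) 1 was lower. In the knee, 1 was called higher and 2 lower, against 8.96% and 6.92% of all genes. A 1.5-fold rule called 58 lower (13.9% of all genes), and scaling by library size called 1 lower. An exact test with an assumed coefficient of variation called 0 members higher and 0 lower in either joint. Other alternatives left these counts within 1.5 times. Shares of all genes are given only for the main and 1.5-fold rules, so calls under the other settings have no background beside them. Of 48 named genes per joint, the scalings, added counts and filters changed no sign in the hip, and library size changed 2 in the knee. Removal of the length trend changed 5 signs in the hip and 3 in the knee, and removal of length and GC trends changed 16 and 2. Depth limits Rpl24 and Rpl39l in the hip, with 14 and 39 counts at most.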
